A study of Mus musculus with 6 samples.

Results

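Proteases and membrane glycoproteins of the lysosome, 10 genes chosen by symbol with earlier results of these data known, were compared. They were the cathepsins Ctsa, Ctsb, Ctsd, Ctsh, Ctsl, Ctss and Ctsz, and Lamp1, Lamp2 and Cd63. Each had 1 row among the 27761 genes of the deposited table, and all 10 passed the filter on low values that left 12953 genes for testing. The libraries hold messenger RNA of mouse bone marrow cells carrying B220, the form of CD45 found on B-lineage cells and on plasmacytoid dendritic cells. There were 3 libraries with the genotype PELI2 knockout, titled PELI2-CKO and called PELI2_CKO here, and 3 libraries with the genotype WT. Strain, age, sex, the Cre driver of the conditional allele and whether replicates were separate animals are not given in the sources used here. The p-values therefore measure the spread between these samples, which may be technical. Levels are in FPKM, reads scaled by transcript length and library size, so that levels of different genes can be compared per length.

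Lysosomes are acidic compartments in which proteins delivered from the cell surface, the cytosol and the secretory route are broken down. Cathepsins do much of this work as proteases, and a dense coat of LAMP glycoproteins lines the inside of the lysosomal membrane. In B cells and other antigen-presenting cells the same compartments cut antigens and the invariant chain, which fills the groove of MHC class II molecules until a peptide replaces it. In granulocytes and monocytes, which are rich in lysosomes and granules, many of the same genes are strongly expressed. The transcription factor TFEB and its relatives bind E-boxes with the core CACGTG in the promoters of many lysosomal genes.

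The target and the cell type markers were checked first. Peli2 stood at 3.07, 2.70 and 2.47 FPKM in the libraries labelled PELI2_CKO, against 2.03, 2.54 and 1.99 FPKM in WT, so it was not lower under the knockout label, and a gene-level value does not show the loss of single exons. Higher and lower below therefore refer to the labels alone. Low values stepped by whole reads and placed the depth at 16600000 to 18100000 reads per library. B lineage markers were present in all libraries, with Cd79a at 502 ± 13.9 FPKM in the libraries labelled PELI2_CKO and 636 ± 76.4 FPKM in WT (SD, n = 3 each). The granulocyte genes S100a9 and S100a8 were higher than any B lineage marker on the list, at 4546 ± 221 and 3215 ± 339 FPKM in the libraries labelled PELI2_CKO and 3439 ± 600 and 2267 ± 387 FPKM in WT. WT replicate 1 had the lowest level of 8 of the 10 genes among the 6 libraries, and PELI2_CKO replicate 3 had the highest level of 7. Results for the 10 genes together are therefore also given without each of these libraries, and those of several single genes without 1 or both.

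Promoters in the RefSeq annotation (GRCm38.p6), spanning 250 bases before to 50 after a start, were found for 8 of the 10 genes, in 9 regions. They are shown because the genes had higher means together and because TFEB-type E-boxes are the textbook feature of this family. The letters CACGTG, searched on both strands, occurred in 4 of the 9 regions, those of Lamp1, Ctsd, Ctsl and 1 of the 2 starts of Ctsa. Of all 32851 promoter regions of this length, 7.15% hold them. The longer form GTCACGTGAC, which contains CACGTG, occurred in 0 of the 9 and in 0.326% of all regions. Lamp1 has 4 copies, whose first bases lie at -61, -45, -28 and -15 from the start. The 250 bases before its start (chr8:13158911-13159160, plus strand) follow, with CACGTG in capitals.
Lamp1: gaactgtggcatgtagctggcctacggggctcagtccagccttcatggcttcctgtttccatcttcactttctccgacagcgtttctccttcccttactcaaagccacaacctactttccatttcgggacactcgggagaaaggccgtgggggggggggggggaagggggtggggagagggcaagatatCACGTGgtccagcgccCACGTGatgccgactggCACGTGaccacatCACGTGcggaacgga
Short stretches around the other copies show the flanking bases, again with CACGTG in capitals. They come from Ctsa (chr2:164833758-164833787, plus strand), Ctsd (chr7:142388048-142388077 and chr7:142387908-142387937, minus strand) and Ctsl (chr13:64370741-64370770, minus strand). The RefSeq starts used for these regions lie inside the gene spans given below. The Ctsa copies, the Ctsd copy nearer to the start and the Ctsl copy therefore lie inside those spans too.
Ctsa: tgtCACGTGatgcagatgctCACGTGacca
Ctsd, farther from the start: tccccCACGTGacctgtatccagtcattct
Ctsd, nearer to the start: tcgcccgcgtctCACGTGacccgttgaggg
Ctsl: gcggcgttagaagcCACGTGctgatctaaa
The Ctss promoter holds no CACGTG. It holds GAAANNGAAA at -21, a pair of GAAA blocks of the kind that interferon regulatory factors bind, shown in capitals (chr3:95526536-95526785, plus strand). This motif was chosen after the sequence was seen. It was searched on both strands, occurred in 2 of the 9 regions, those of Ctss and Lamp1, and is held by 3.44% of all regions.
Ctss: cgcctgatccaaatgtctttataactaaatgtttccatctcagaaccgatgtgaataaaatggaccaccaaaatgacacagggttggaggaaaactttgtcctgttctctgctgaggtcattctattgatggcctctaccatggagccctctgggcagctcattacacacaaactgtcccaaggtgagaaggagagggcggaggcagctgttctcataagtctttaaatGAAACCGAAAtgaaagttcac
A match describes the letters only, and binding was not measured.

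All 10 genes had a higher mean in the libraries labelled PELI2_CKO than in WT, or 9 of 10, without Ctsa, when libraries were rescaled to a common total. The median difference was 0.23 on the log2(FPKM + 1) scale, against -0.01 over all genes tested. The differences ran from 0.04 for Ctsa to 0.40 for Ctsl. None passed the test across all genes (limma, adjusted p under 0.05), where 3 of 12953 genes did, or 0.0232%. Adjusted p ran from 0.142 to 0.65. At a nominal p below 0.05, before adjustment, 6 of the 10 were higher and 0 lower (Ctsb, Ctsl, Ctsh, Ctsz, Lamp2 and Cd63). Of all genes tested, 9.2% were higher and 8.88% lower at that threshold, 18.1% in all. Groups did not overlap for 6 of the 10, all higher in the libraries labelled PELI2_CKO, where 11.5% of all genes were apart in that direction and 25.8% in either. A higher mean was found for 46.4% of all genes. Since the 10 genes were chosen with earlier results of these data known, their counts beside these shares describe them and test nothing. Without WT replicate 1, 4 of the 10 had a nominal p below 0.05 (12.7% of all genes in that fit), and the median difference was 0.18. Without PELI2_CKO replicate 3, 2 of the 10 did, Ctsb and Ctsz (12.9% of all genes), and the median was 0.22.

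**Figure D1:**
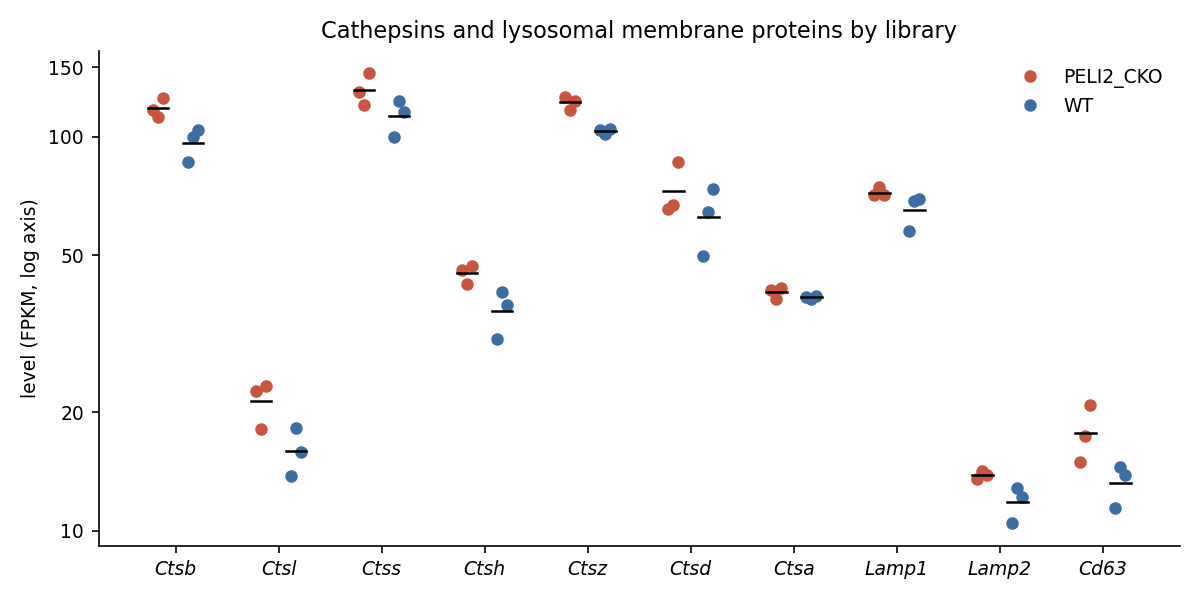
Level of each gene in FPKM on a log axis, with 1 point per library and a bar at the mean of 3 libraries. The points labelled PELI2_CKO lie wholly above those of WT for Ctsb, Ctsh, Ctsz, Lamp1, Lamp2 and Cd63.

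The cysteine cathepsins held the 4 proteases with intervals above 0. Ctsb (ENSMUSG00000021939, chr14:63122462-63145923), an endopeptidase that also trims dipeptides from carboxyl ends, stood at 117, 112 and 126 FPKM in the libraries labelled PELI2_CKO, against 86.0, 99.5 and 104 FPKM in WT. Each library labelled PELI2_CKO was above each WT library. The difference was 0.29 ± 0.08 (log2, standard error), with a 95% interval of 0.09 to 0.49 (limma, adjusted p = 0.188). Ctsh (ENSMUSG00000032359, chr9:90054152-90076089), mainly an aminopeptidase, stood at 45.8, 42.4 and 47.1 FPKM in those labelled PELI2_CKO, against 30.7, 40.4 and 37.3 FPKM in WT. The groups were apart, by 1.95 FPKM between the nearest libraries, and the difference was 0.32 ± 0.10 (limma, adjusted p = 0.214), or 0.21 without WT replicate 1.

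Ctsz (ENSMUSG00000016256, chr2:174427493-174439039) encodes cathepsin X, a carboxypeptidase. It stood at 126, 117 and 123 FPKM in the libraries labelled PELI2_CKO, against 104, 102 and 104 FPKM in WT. WT libraries lay within a coefficient of variation of 1.32%, and the groups were clearly apart. Its difference of 0.24 ± 0.05 had the lowest adjusted p of the 10 genes, 0.142 (limma), and an interval of 0.12 to 0.36. In each of the 16 alternative settings its nominal p stayed below 0.05, which also held for Ctsb and for no other of the 10.

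Ctsl (ENSMUSG00000021477, chr13:64359337-64370890), an endopeptidase, stood at 22.6, 18.2 and 23.3 FPKM in the libraries labelled PELI2_CKO, against 13.8, 18.3 and 15.9 FPKM in WT. PELI2_CKO replicate 2 lay just under WT replicate 2, so the groups overlapped, although the mean difference of 0.40 ± 0.13 was the largest of the 10 (limma, adjusted p = 0.209). That difference was 0.30 without WT replicate 1 and 0.34 without PELI2_CKO replicate 3. In neither of these fits was its nominal p below 0.05 (limma). Ctss (ENSMUSG00000038642, chr3:95526786-95556403), whose promoter is shown above, is the protease that clears the invariant chain in B cells and dendritic cells. It stood at 130, 120 and 145 FPKM in those labelled PELI2_CKO, against 100, 123 and 115 FPKM in WT. The groups overlapped through the same pair of replicates, with a difference of 0.22 ± 0.10 (limma, adjusted p = 0.3), or 0.14 without WT replicate 1.

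The other 2 cathepsins belong to other protease classes. Ctsd (ENSMUSG00000007891, chr7:142375911-142388038), the main aspartic protease of lysosomes, stood at 65.4, 67.3 and 86.0 FPKM in the libraries labelled PELI2_CKO, against 49.9, 64.4 and 73.7 FPKM in WT. Only PELI2_CKO replicate 3 was above every WT library. The difference was 0.22 with all libraries, 0.10 without PELI2_CKO replicate 3, 0.07 without WT replicate 1 and 0.35 without WT replicate 3, and its interval, -0.17 to 0.61, was the widest of the cathepsins (limma, adjusted p = 0.502). Ctsa (ENSMUSG00000017760, chr2:164832873-164841032), a serine carboxypeptidase that also shields beta-galactosidase and neuraminidase in lysosomes, stood at 40.9, 38.8 and 41.3 FPKM in those labelled PELI2_CKO, against 39.3, 38.7 and 39.4 FPKM in WT. The groups overlapped. The difference was 0.04 ± 0.04 with an interval of -0.07 to 0.15 (limma, adjusted p = 0.65), and its sign turned, to -0.03, when libraries were rescaled to a common total.

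Lamp1 and Lamp2, the major glycoproteins of the lysosomal membrane, had higher means with groups apart. Lamp1 (ENSMUSG00000031447, chr8:13159161-13175338) stood at 71.0, 74.4 and 71.0 FPKM in the libraries labelled PELI2_CKO, against 57.5, 68.8 and 69.3 FPKM in WT. WT replicate 1 was far below the other WT libraries, and the difference of 0.15 ± 0.08 was 0.06 without it (limma, adjusted p = 0.381 with all libraries). Lamp2 (ENSMUSG00000016534, chrX:38401357-38456454), whose forms also serve chaperone-mediated autophagy, stood at 13.5, 14.1 and 13.8 FPKM in those labelled PELI2_CKO, against 10.5, 12.8 and 12.2 FPKM in WT. Its difference was 0.22 ± 0.08, with an interval of 0.03 to 0.40 (limma, adjusted p = 0.229), or 0.14 without WT replicate 1. The ratio of Lamp1 to Lamp2 levels, which library scaling cannot move, was 5.24, 5.26 and 5.13 in the libraries labelled PELI2_CKO, against 5.50, 5.37 and 5.70 in WT, and these did not overlap.

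Cd63 (ENSMUSG00000025351, chr10:128900989-128912822) is a tetraspanin of late endosomes, lysosomes and secretory granules that reaches the surface when granulated cells release their content. It stood at 14.9, 17.4 and 20.9 FPKM in the libraries labelled PELI2_CKO, against 11.4, 14.5 and 13.8 FPKM in WT. The lowest library labelled PELI2_CKO was above the highest WT library by 0.42 FPKM. The difference of 0.39 ± 0.13 had an interval of 0.07 to 0.71 (limma, adjusted p = 0.227). It was 0.29 without WT replicate 1 and 0.27 without PELI2_CKO replicate 3. In neither of these fits was its nominal p below 0.05 (limma).

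**Figure D2:**
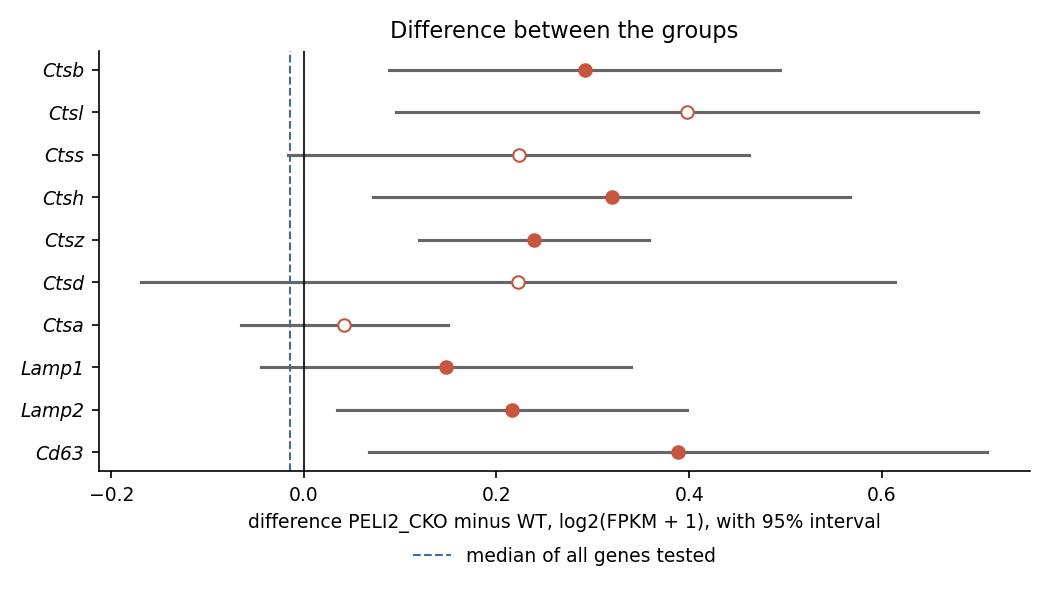
Difference between the groups for each gene (PELI2_CKO minus WT, log2(FPKM + 1)) with its 95% interval from limma. Filled points mark genes whose groups did not overlap, and the dashed line is the median of all genes tested, -0.01.

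Set beside the promoter sequences, the genes with CACGTG had differences of 0.40 for Ctsl, 0.22 for Ctsd, 0.15 for Lamp1 and 0.04 for Ctsa. Those whose regions lacked it had 0.22 for Ctss, 0.24 for Ctsz, 0.22 for Lamp2 and 0.39 for Cd63. With 4 genes in each set, the values of the sets overlapped.

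The order of the levels was much the same in both groups. Ctss, Ctsz and Ctsb came first, with means of 132, 122 and 118 FPKM in the libraries labelled PELI2_CKO and 113, 103 and 96.6 FPKM in WT, and neighbours in this trio overlapped in both groups. Ctsd and Lamp1 followed, at 72.9 and 72.1 FPKM in the libraries labelled PELI2_CKO and 62.6 and 65.2 FPKM in WT, also overlapping. Next came Ctsh and Ctsa, at 45.1 and 40.3 FPKM in those labelled PELI2_CKO, against 36.1 and 39.1 FPKM in WT. They did not overlap in the libraries labelled PELI2_CKO, where Ctsh was higher, and overlapped in WT. Ctsl, Cd63 and Lamp2 were lowest, at 21.4, 17.7 and 13.8 FPKM in those labelled PELI2_CKO, against 16.0, 13.3 and 11.8 FPKM in WT. Within that trio Cd63 and Lamp2 were apart in the libraries labelled PELI2_CKO, while all neighbours overlapped in WT.

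Summed over the 7 cathepsins, the level was 547, 516 and 592 FPKM in the libraries labelled PELI2_CKO, against 424, 486 and 490 FPKM in WT, with no overlap. The 3 largest parts of that sum had shares that overlapped between the groups. Ctss took 23.8% ± 0.60 of it in the libraries labelled PELI2_CKO and 24.1% ± 0.99 in WT (SD, n = 3 each), Ctsz 22.2% ± 1.15 (labelled PELI2_CKO) and 22.2% ± 1.97 (WT), and Ctsb 21.4% ± 0.28 (labelled PELI2_CKO) and 20.7% ± 0.50 (WT). Ctsa was the only cathepsin whose share did not overlap between the groups. It took 7.48%, 7.51% and 6.99% in the libraries labelled PELI2_CKO, against 9.27%, 7.97% and 8.04% in WT. The level of Ctsa itself overlapped between the groups, and a share also falls when the rest of the sum is higher.

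**Figure D3:**
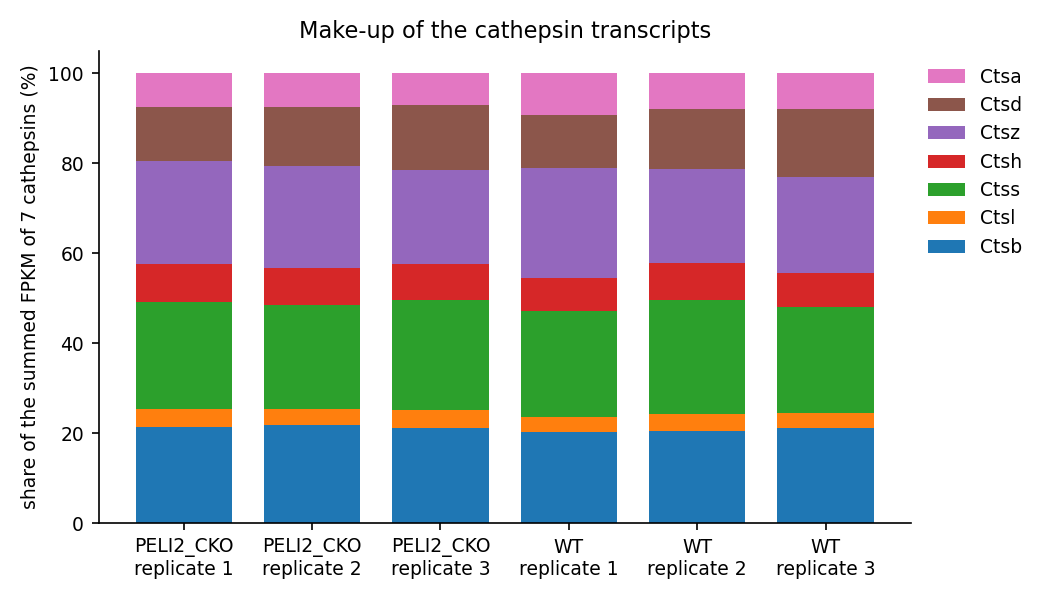
Share of each cathepsin in the summed FPKM of the 7 cathepsins, 1 bar per library. Ctss, Ctsz and Ctsb are the 3 largest parts in each library, and the Ctsa part is smaller in the libraries labelled PELI2_CKO than in those of WT.

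The mean of the 10 genes also differed between libraries of the same group. Relative to each gene's mean over 6 libraries, the 10 genes averaged 0.10, 0.06 and 0.22 (log2) in PELI2_CKO replicates 1 to 3, against -0.28, -0.04 and -0.06 in WT replicates 1 to 3. WT replicate 1 was thus the lowest and PELI2_CKO replicate 3 the highest. Single genes did not all follow this order. Lamp1 and Lamp2 were highest in PELI2_CKO replicate 2 and Ctsz in PELI2_CKO replicate 1. Ctsz and Ctsa were lowest in WT replicate 2. Cd63 showed the widest spread, with 0.43 in PELI2_CKO replicate 3 and -0.39 in WT replicate 1, and Ctsa the narrowest, with 0.06 in PELI2_CKO replicate 3 and -0.04 in WT replicate 2. Within WT the coefficient of variation was 0.925% for Ctsa, 1.32% for Ctsz and between 9.75% and 19.2% for the other 8 genes. The lowest library of each gene held between 185 reads per kilobase, for Lamp2, and 1772, for Ctss, which gives a counting error of 7.35% and 2.38% on a transcript of that length.

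**Figure D4:**
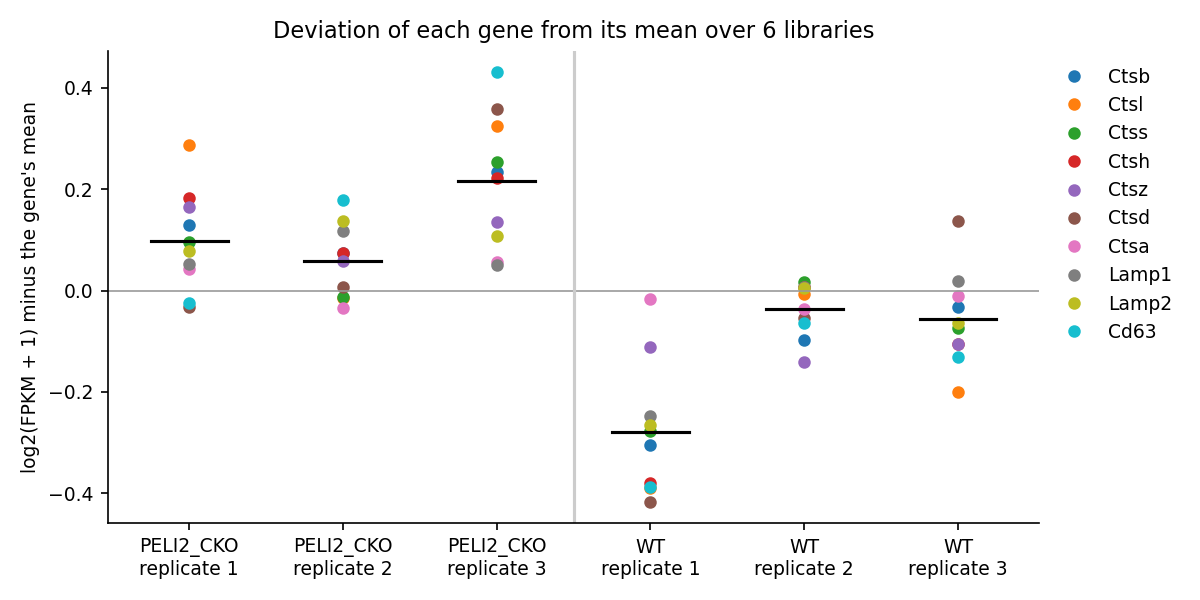
Deviation of each gene from its own mean over the 6 libraries, on the log2(FPKM + 1) scale, with a bar at the mean of the 10 genes. The bar is lowest in WT replicate 1, at -0.28, and highest in PELI2_CKO replicate 3, at 0.22.

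Summed markers of several other cell types were higher in the same libraries. Summed over 12 granulocyte markers, the level was 11750 to 13740 FPKM in the libraries labelled PELI2_CKO, against 7348 to 10240 FPKM in WT, and 12 of 12 had a higher mean. Summed monocyte and macrophage markers stood at 1082 to 1378 FPKM in those labelled PELI2_CKO, against 736 to 1051 FPKM in WT, with 12 of 12 higher. Erythroid markers stood at 11300 to 14340 FPKM in those labelled PELI2_CKO, against 7675 to 11590 FPKM in WT, with 8 of 8 higher. B lineage markers went the other way, at 1808 to 1890 FPKM in the libraries labelled PELI2_CKO, against 2213 to 2669 FPKM in WT, with 0 of 12 higher.

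The lowest sums of granulocyte, monocyte and erythroid markers were those of WT replicate 1, and the highest those of PELI2_CKO replicate 3, as for most of the 10 genes. Summed markers of plasmacytoid dendritic cells overlapped, at 1452 to 1625 FPKM in those labelled PELI2_CKO, against 1432 to 1633 FPKM in WT. Yet 8 of these 10 had a higher mean, by 0.27 (log2) in the median, and 6 were higher with groups apart and 6 at a nominal p below 0.05. Ly6d and Spib, the most abundant of the 10, were the 2 with a lower mean. Such counts were not particular to this list. Higher with groups apart were 10 of 12 granulocyte and 7 of 12 monocyte markers, and 9 and 6 reached that nominal p. Of 12 B lineage markers 8 were lower with groups apart and 9 reached it. Of all genes, 11.5% were higher with groups apart, and 25.8% were apart in either direction. At that nominal p, 9.2% of all genes were higher and 8.88% lower. Summed plasma cell markers overlapped too (718 to 905 FPKM in those labelled PELI2_CKO, against 683 to 754 FPKM in WT, 5 of 8 higher). Basophil, mast cell and eosinophil markers, whose cells are known for Cd63, stood at 1073 to 1879 FPKM in those labelled PELI2_CKO, against 1213 to 1656 FPKM in WT, with 2 of 8 higher. Megakaryocyte markers stood at 35.7 to 76.5 FPKM in those labelled PELI2_CKO, against 40.3 to 59.2 FPKM in WT, with 3 of 6 higher. T and NK cell markers stood at 86.5 to 99.4 FPKM in those labelled PELI2_CKO, against 61.8 to 78.5 FPKM in WT, with 6 of 8 higher. No marker was at 0 in all libraries, and Cd3e alone was under 1 FPKM in each. None of the markers passed the test across all genes (limma). The part of these cells in the levels of the 10 genes was not tested, and in bulk RNA fewer cells of a type and less RNA per cell cannot be told apart.

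**Figure D5:**
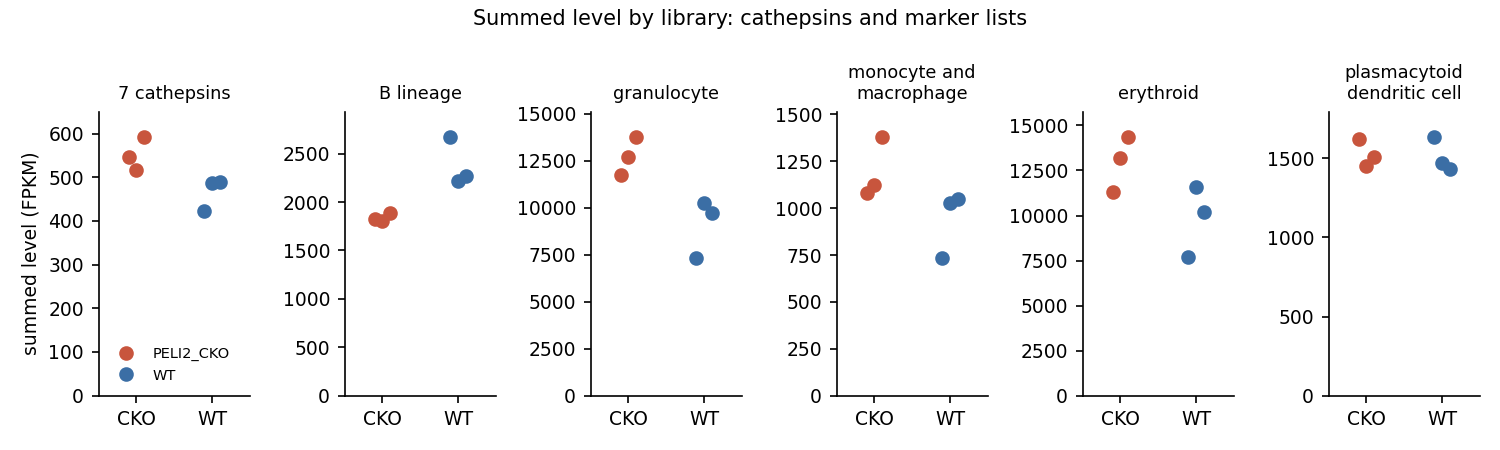
Summed FPKM of the 7 cathepsins and of 5 lists of marker genes, 1 point per library, each panel with its own axis from 0. Cathepsins, granulocyte and monocyte markers lie higher and B lineage markers lower in the libraries labelled PELI2_CKO, while the sums of erythroid and of plasmacytoid dendritic cell markers overlap.

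Other cathepsins and their inhibitors also had mostly higher means. For the counts of this and the following lists, 46.4% of all genes tested had a higher mean. At a nominal p below 0.05, 9.2% of all genes were higher and 8.88% lower. Of 9 further proteases with a row, all tested, 8 were higher and the median difference was 0.23 (0.14 without WT replicate 1 and 0.35 without WT replicate 3), and 3 higher and 0 lower genes reached a nominal p below 0.05. Ctsg, a serine protease of neutrophil granules that is also on the granulocyte list, stood at 107 ± 22.5 FPKM in the libraries labelled PELI2_CKO and 33.6 ± 7.85 FPKM in WT (limma, adjusted p = 0.0908). Ctsc, the dipeptidyl peptidase that activates granule serine proteases, stood at 19.8 ± 0.21 FPKM (labelled PELI2_CKO) and 15.9 ± 1.55 FPKM (WT). Ctsf stood at 4.04 ± 1.34 FPKM (labelled PELI2_CKO) and 2.29 ± 0.34 FPKM (WT). Ctso was the lower one, at 8.41 ± 0.49 FPKM (labelled PELI2_CKO) and 9.37 ± 0.56 FPKM (WT). Of 10 inhibitor genes 6 passed the filter on low values, and these 6 were all higher, by 0.38 in the median (0.22 without WT replicate 1), 3 of them at a nominal p below 0.05. Cst7, cystatin F, which acts inside lysosomes of immune cells, stood at 16.2 ± 1.28 FPKM in the libraries labelled PELI2_CKO and 9.33 ± 2.37 FPKM in WT (limma, adjusted p = 0.147). Cst3, the secreted cystatin C, stood at 152 ± 8.62 FPKM (labelled PELI2_CKO) and 126 ± 11.8 FPKM (WT). Stfa1 and Stfa2l1 are stefins from a cluster of near-identical copies, and their values are uncertain for that reason. Stfa1 stood at 2.65 ± 0.61 FPKM (labelled PELI2_CKO) and 1.23 ± 0.95 FPKM (WT). Stfa2l1 stood at 11.0 ± 2.40 FPKM (labelled PELI2_CKO) and 7.88 ± 3.38 FPKM (WT). Both had overlapping groups. Stfa1 was 1 of the 3 inhibitors with a nominal p below 0.05. Its WT libraries stood at 0.54, 2.30 and 0.83 FPKM, so it passed the filter only with the libraries labelled PELI2_CKO. Its nominal p is no support.

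Among soluble hydrolases 27 of 34 were higher. The median difference was 0.09 (0.02 with libraries rescaled to a common total), and 10 higher and 0 lower genes reached a nominal p below 0.05. Asah1, acid ceramidase, stood at 24.7 ± 0.89 FPKM in the libraries labelled PELI2_CKO and 19.0 ± 1.42 FPKM in WT (limma, adjusted p = 0.138). Hexa, a subunit of beta-hexosaminidase, stood at 47.2 ± 2.17 FPKM (labelled PELI2_CKO) and 37.4 ± 3.50 FPKM (WT), and Dnase2a, the lysosomal DNase, at 5.37 ± 0.30 FPKM (labelled PELI2_CKO) and 4.30 ± 0.30 FPKM (WT). Groups were apart for each of these 3, which were named for their small p, so this is no separate support. On the whole list, 12 of 34 genes were higher with groups apart and 1 lower. Of all genes, 11.5% were higher with groups apart and 25.8% were apart in either direction.

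Other membrane proteins and the proton pump showed smaller differences. Of 23 membrane proteins 16 were higher, and the median difference was 0.06 (-0.0056 with libraries rescaled to a common total). The nominal p was below 0.05 for 3 higher and 0 lower genes, the higher count being near the 9.2% of all genes. Tmem63a stood at 17.7 ± 0.50 FPKM in the libraries labelled PELI2_CKO and 14.6 ± 0.31 FPKM in WT (limma, adjusted p = 0.138), and Npc1, which exports cholesterol from lysosomes, at 8.19 ± 0.65 FPKM (labelled PELI2_CKO) and 7.09 ± 0.13 FPKM (WT). Cd68, a LAMP relative abundant in macrophages, stood at 42.9 ± 6.83 FPKM (labelled PELI2_CKO) and 32.7 ± 4.28 FPKM (WT), with overlapping groups, and Cln3 at 7.68 ± 0.28 FPKM (labelled PELI2_CKO) and 6.88 ± 0.39 FPKM (WT). Of 17 V-ATPase genes 12 were higher, the median difference was 0.08 (0.0076 with that rescaling), and the nominal p was below 0.05 for 4 higher and 0 lower genes. The 4 were Atp6v0c, at 31.0 ± 0.57 FPKM (labelled PELI2_CKO) and 27.9 ± 0.50 FPKM (WT), Atp6v1b2, at 21.2 ± 0.77 FPKM (labelled PELI2_CKO) and 19.0 ± 0.585 FPKM (WT), Atp6ap2, at 40.1 ± 1.02 FPKM (labelled PELI2_CKO) and 35.8 ± 2.55 FPKM (WT), and Atp6v1d, at 16.3 ± 0.25 FPKM (labelled PELI2_CKO) and 14.8 ± 0.76 FPKM (WT).

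Sorting genes were divided, with 14 of 25 higher and a median difference of 0.01, or -0.07 with libraries rescaled to a common total, -0.01 without PELI2_CKO replicate 1 and -0.0034 without WT replicate 3. A nominal p below 0.05 was found for 3 higher and 0 lower genes, the higher count being near the 9.2% of all genes. Ap3s1, the small subunit of the AP-3 adaptor that carries membrane proteins such as Cd63 and LAMPs to lysosomes, stood at 27.5 ± 1.37 FPKM in the libraries labelled PELI2_CKO and 18.9 ± 1.89 FPKM in WT (limma, adjusted p = 0.114). Sort1, a sorting receptor, stood at 15.1 ± 0.10 FPKM (labelled PELI2_CKO) and 10.9 ± 1.84 FPKM (WT), and M6pr, the cation-dependent mannose 6-phosphate receptor that delivers hydrolases, at 49.6 ± 1.09 FPKM (labelled PELI2_CKO) and 43.8 ± 1.12 FPKM (WT). Gga2, an adaptor for those receptors, stood at 10.7 ± 0.85 FPKM (labelled PELI2_CKO) and 12.02 ± 0.44 FPKM (WT).

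TFEB family and mTORC1 genes had 8 of 18 higher and a median difference of -0.04. That median was -0.02 without WT replicate 2, -0.0066 without WT replicate 3 and -0.12 with libraries rescaled to a common total. A nominal p below 0.05 was found for 3 higher and 2 lower genes. Tfeb itself stood at 17.8 ± 0.84 FPKM in the libraries labelled PELI2_CKO and 20.8 ± 1.95 FPKM in WT, with groups apart and its mean lower (limma, adjusted p = 0.23). Tfec, a relative known from macrophages and 1 of the 3 higher genes, stood at 1.15 ± 0.04 FPKM (labelled PELI2_CKO) and 0.52 ± 0.22 FPKM (WT). Every WT library was under 1 FPKM. Tfec thus passed the filter on low values only through the libraries labelled PELI2_CKO, and its nominal p is no support. Lamtor4, part of the Ragulator scaffold of mTORC1, stood at 29.2 ± 3.30 FPKM (labelled PELI2_CKO) and 23.9 ± 0.56 FPKM (WT). The GTPase Rragd stood at 2.13 ± 0.08 FPKM (labelled PELI2_CKO) and 2.78 ± 0.41 FPKM (WT).

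Genes of MHC class II peptide loading, which Ctss serves, were higher in 8 of 9 cases, by 0.22 in the median, or 0.05 without WT replicate 1 and 0.14 without PELI2_CKO replicate 3. The nominal p was below 0.05 for 1 higher and 0 lower genes. This was H2-DMa, a chain of the peptide exchange factor, at 68.3 ± 4.57 FPKM in the libraries labelled PELI2_CKO and 57.3 ± 3.92 FPKM in WT (limma, adjusted p = 0.189). H2-DMb1 stood at 58.3 ± 5.79 FPKM (labelled PELI2_CKO) and 48.4 ± 11.1 FPKM (WT), H2-Ab1 at 446 ± 51.0 FPKM (labelled PELI2_CKO) and 382 ± 52.3 FPKM (WT), and H2-Aa at 349 ± 49.2 FPKM (labelled PELI2_CKO) and 290 ± 63.0 FPKM (WT), all with overlapping groups. Of 12 tetraspanins, the family of Cd63, 7 were higher, the median difference was 0.07 (-0.0045 without WT replicate 1, 0.01 with libraries rescaled to a common total), and the nominal p was below 0.05 for 3 higher and 2 lower genes. Tspan4 stood at 4.45 ± 0.15 FPKM (labelled PELI2_CKO) and 3.58 ± 0.33 FPKM (WT), Cd82 at 43.9 ± 2.65 FPKM (labelled PELI2_CKO) and 38.1 ± 2.58 FPKM (WT) and Cd151 at 4.04 ± 0.15 FPKM (labelled PELI2_CKO) and 3.43 ± 0.23 FPKM (WT). Cd37, known from mature B cells, went the other way, at 168 ± 4.20 FPKM in the libraries labelled PELI2_CKO and 191 ± 11.6 FPKM in WT (limma, adjusted p = 0.226).

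Over these 9 lists together, without the 10 genes, 106 of 153 tested genes were higher, as were 46.4% of all genes tested. The median difference was 0.07, against -0.01 over all genes tested. A nominal p below 0.05 was reached by 33 higher and 4 lower genes, and by 9.2% (higher) and 8.88% (lower) of all genes. The 33 include Tfec and Stfa1, which passed the filter only with the libraries labelled PELI2_CKO. The lists too were chosen with earlier results of these data known. None of the 153 genes passed across all genes (limma), the lowest adjusted p being that of Ctsg. The profile over the 6 libraries that lay closest to the mean profile of the 10 genes was that of Gpx4, a glutathione peroxidase that removes lipid peroxides, with a root mean square difference of 0.0227 (log2) and levels of 64.4 ± 3.58 FPKM in the libraries labelled PELI2_CKO and 52.8 ± 4.64 FPKM in WT. Faap20, Itm2b, Rsu1 and Rps6ka4 followed, at 0.0298 to 0.0343, picked from 12953 genes by likeness over only 6 values.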

How the data were processed

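Per the labels' protocols, RNA was isolated by TRIzol, polyadenylated RNA was captured on oligo(dT) beads, and a DNBSEQ instrument read single ends of 50 bases. In the submitters' processing notes, GRCm38.p6 is the build, and the tools, listed without their roles, are RSEM 1.2.12, HISAT2 2.0.4, DESeq2 1.4.5 and Bowtie2 2.2.5. The authors deposited 1 table of FPKM per gene and library, and state no scaling across libraries. Strand use is not stated, so reads shared with an overlapping gene on the other strand cannot be told apart. Among the 10 genes this concerns Ctsa (Neurl2, Pltp), Ctsb (Fdft1), Ctsl (Gm47123), Ctsz (Nelfcd) and Lamp1 (Grtp1). Positions are those of the table, and they equal GENCODE M21 for all 10 genes.

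The depth of a library was taken as the total that best turned low FPKM of genes with 1 annotated transcript into whole reads. Under 6 reads, 99.1% to 99.4% of 3223 to 3484 genes lay within 0.03 of a whole number. Counting errors cover counting alone.

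Since FPKM are not counts, count models were not used. The filter kept genes with 3 or more libraries at 1 FPKM or above. Values were tested as log2(FPKM + 1), which understates the change of low genes, by limma 3.58.1 in R 4.3.3 (eBayes with a trend, two-sided, Benjamini-Hochberg over 12953 genes). The scripts were tested on simulated data. The named genes were the 10, Peli2, up to 4 others per list with the smallest p, the 5 with the most alike profile, and the 3 highest markers per list with any under 1 FPKM. Of the highest markers, Cd79a, S100a8 and S100a9 are given with values, and the others only in the sums. Of the soluble hydrolases chosen by this rule, 1 is not reported here. On the lists, Lamp5, Cts3, Cts6, Cts7, Cts8, Ctsj, Ctsm, Ctsq and Ctsr had no row. The 10 genes and the lists were chosen with earlier results of these data known. The 16 alternatives changed the pseudocount (0.1 or 0.5), the filter (none, or 5 FPKM), the scaling (median of ratios, a common total of 1000000, or quantiles), the eBayes trend, library weights and the replicate block, or left out 1 of the 6 libraries. Plots were made in Python 3.11.15 using matplotlib 3.10.9.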

Additional observations from a re-analysis of the deposited data

How the results depend on the processing

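None of the 10 genes passed across all genes in any of the 16 alternatives. The settings of the filter, the eBayes trend and the replicate block leave a gene's difference unchanged, so signs could not turn there. With those counted in, 159 of 160 differences kept their sign. The exception was Ctsa, at -0.031 (log2) when libraries were rescaled to a common total. That scaling also moved the split of genes with a nominal p below 0.05 to 726 higher and 2331 lower, against 1192 and 1150. The count of the 10 genes at that threshold was 6, and it ran from 2 to 7 with 1 library left out, lowest without PELI2_CKO replicate 3. The number of genes called was 3, or 1 with a filter of 5 FPKM, 6 with eBayes without a trend, and 1 to 13 with 1 library left out, highest without PELI2_CKO replicate 3. The causes were not tested. No gene of the 9 other lists was called in any alternative, and 126 of 144 median differences of those lists moved by less than the spread between replicates. These include the settings of the eBayes trend and the replicate block, which cannot move a median.

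No pairing of libraries with the same replicate number is stated in the sources used here. Their deviations correlated at 0.10, 0.04 and 0.09, and each library correlated best with its own number. Whether such libraries share a batch was not tested. With the replicate block 4 genes were called and 7 of the 10 genes had a nominal p below 0.05, as did 19.3% of all genes in that fit.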
